A study of Homo sapiens with 519 samples.

Results

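JQ1 is a small molecule that occupies the acetyl-lysine pockets of the BET bromodomain proteins and releases them from chromatin, and the wells described here are those in which SK-N-BE(2) cells were exposed to it for 24 h. The wells were taken by their labels: 3 JQ1 wells at a labelled concentration of 10, for which no unit is given, and 9 wells that received DMSO alone. They belong to the 96 libraries of the third experiment, in a series of 519 libraries, and no other experiment holds JQ1. SK-N-BE(2) is an established human neuroblastoma line, known for MYCN amplification and carrying the genotype label MYCNA, and all groups below are this one line with DMSO at 0.1% in the medium. For direct comparison there were 3 wells each of flavopiridol at a labelled 3 (an inhibitor of CDK9 and other cyclin-dependent kinases), palbociclib at 10 (a CDK4 and CDK6 inhibitor) and pomiferin at 10 (a prenylated isoflavone), all for 24 h and without a unit. The experiment as a whole was built around relatives of isopomiferin and inhibitors of the kinase CK2, and the labels do not say why JQ1 was included. RNA was read by PLATE-seq, in which each well of a plate receives its own barcode and the 3′ ends of polyadenylated transcripts are sequenced from the pooled wells. The labels do not say whether the wells of a treatment were separate cultures, so the spread between wells may be technical. P-values rest on a spread per gene shared over all 30 groups of the experiment. A small p therefore does not mean that the 3 JQ1 wells agree. The binding of BET proteins to chromatin was not measured.

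The BET proteins, BRD2 and BRD3 among them, bind acetylated histone tails and help to bring the elongation kinase P-TEFb, made of CDK9 and a cyclin T, to genes where RNA polymerase II has paused. HEXIM1 holds P-TEFb inactive in a particle with LARP7, MEPCE and a small nuclear RNA, and a rise of its transcript is widely used as a readout of BET inhibitors. Adrenergic neuroblastoma cells keep a noradrenergic program in which factors such as HAND2 and GATA3 maintain each other through large enhancers and drive the enzymes and transporters of catecholamine handling; LMO1 is a transcriptional co-regulator of this circuit and a neuroblastoma susceptibility gene.

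JQ1 libraries held 2199791 to 3011563 counts and DMSO libraries 2775143 to 5263249, against a range of 706208 to 5263249 over the 96 libraries. The 3 flavopiridol libraries were the shallowest, at 706208 to 794849 counts. A count was seen for 17058 to 17799 genes in a JQ1 well, for 12292 to 12709 in a flavopiridol well and for 17353 to 19515 in a DMSO well. Mitochondrially encoded transcripts took 20.25% to 21.45% of the counts with JQ1, 25.64% to 28.47% with flavopiridol and 19.01% to 21.34% with DMSO. Over 3925 genes with a mean of at least 30 CPM (counts per gene on a common library size, scaled by the trimmed mean of M values), the correlation of log2 CPM was 0.885 to 0.914 between JQ1 wells, 0.773 to 0.881 between a JQ1 and a DMSO well and 0.869 to 0.946 between DMSO wells. Neuroblastoma genes were expressed in the DMSO wells: the median well had 478 CPM of MYCN, 200.5 CPM of GATA3 and 92.2 CPM of DDC. Of 25 listed markers of other cell types, SOX10 (Schwann cells), CD3E (T cells) and HBB (red cells) had no count in any JQ1 or DMSO well. Others did have counts. The highest DMSO well had 298 CPM of COL1A1 and 50.7 CPM of PDGFRB (fibroblasts) and 6.65 CPM of GFAP (glia), scaled by total counts alone. In bulk wells, fewer cells of a kind and less RNA per cell cannot be told apart.

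JQ1 changed genes in both directions, with more falls than rises. Of 15596 genes tested by edgeR's quasi-likelihood test, 2278 (14.6%) had a Benjamini-Hochberg adjusted p under 0.05 and are referred to as called; 912 were higher with JQ1 (5.85%) and 1366 lower (8.76%). The change was at least 2-fold for 518 of the higher and 847 of the lower genes, and the median over all genes tested was −0.00252 on the log2 scale. For 2080 genes (13.3%) the 3 JQ1 wells all lay on one side of the 9 DMSO wells, and 1568 of these were called. With genes cut into 5 equal groups by DMSO level, 17.8% fell and 8.88% rose in the highest group, against 1.31% and 3.24% in the lowest. Genes of the lowest group had DMSO means of 0 to 1.99 CPM, where so few counts leave a fall hard to call. The count depends on each JQ1 well: it was 1502 without well R2, and 1517, 1376 and 1483 of the 2278 genes were still called without R1, R2 and R3, with 912 called in all of these fits.

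**Figure D1:**
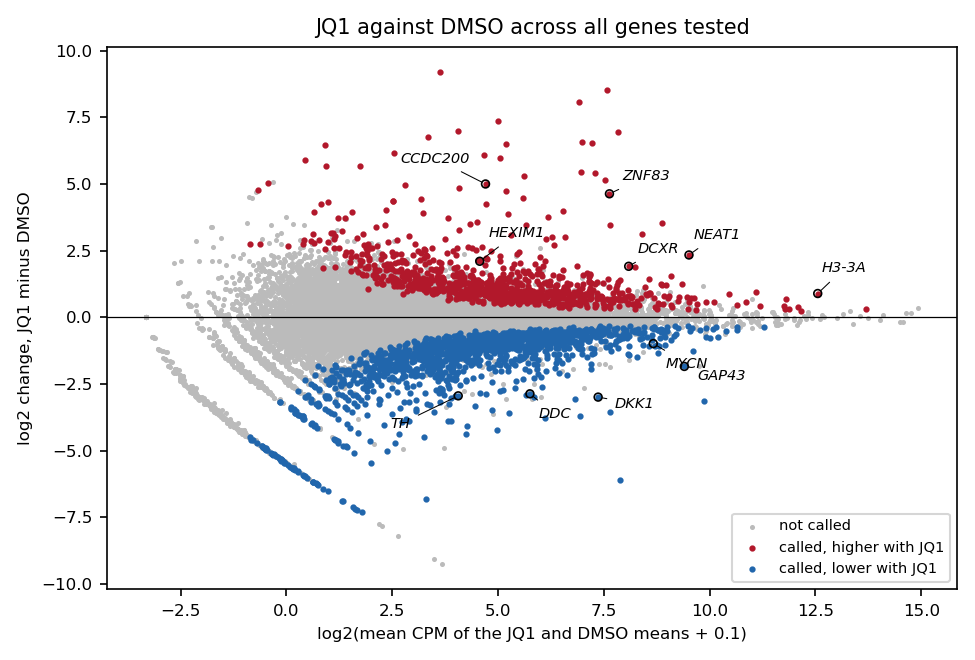
Log2 change of each of the 15596 genes tested (vertical, JQ1 minus DMSO, fitted by edgeR) against its level (horizontal, log2 of the mean of the JQ1 and DMSO CPM means plus 0.1); red points are the 912 genes called higher, blue points the 1366 called lower and grey points the rest. HEXIM1, NEAT1 and H3-3A lie among the called rises, DDC and DKK1 among the called falls, and MYCN lies below zero without being called.

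HEXIM1, the P-TEFb inhibitor, was about 4 times as abundant with JQ1. It had 41.2, 32.5 and 41.5 CPM in the JQ1 wells, against a lowest of 5.29, a median of 9.15 and a highest of 12.8 CPM in the DMSO wells. Every JQ1 well was above every DMSO well. The rise was 2.11 ± 0.28 on the log2 scale (SE; n = 3 and 9; adjusted p = 1.63e-08) and stayed between 2.03 and 2.19 when any one well was left out. HEXIM1 lies on chromosome 17 (chr17:45148475-45152099, GRCh38.p14) and overlaps HEXIM2-AS1; strand-specific counting is not stated in the sources used here, so reads of the pair cannot be told apart. Its promoter is shown because HEXIM1 is the standard BET readout. The sequence is RefSeq's for GRCh38.p14, chr17:45148225-45148524 on the plus strand, from 250 bases before to 50 bases after the annotated start; capitals mark CCAAT (read on either strand, first base at −230 and −149) and TATAAA (at −29).
HEXIM1: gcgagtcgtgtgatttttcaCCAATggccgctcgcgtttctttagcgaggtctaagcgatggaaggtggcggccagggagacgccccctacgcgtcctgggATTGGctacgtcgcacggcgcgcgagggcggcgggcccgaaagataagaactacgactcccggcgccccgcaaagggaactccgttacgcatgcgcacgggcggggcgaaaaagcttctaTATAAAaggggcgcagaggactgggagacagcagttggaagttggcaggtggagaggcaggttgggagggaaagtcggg
The octamer ATTTGCAT and the E-box CACGTG, the letters bound by MYC and MAX dimers, were not found in this window on either strand. CCAAT is in 35.7% of 27305 such promoters, TATAAA in 12%, CACGTG in 7.43% and ATTTGCAT in 1.8%.

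The BET genes BRD2 and BRD3 rose with JQ1. BRD2 had 252, 326 and 270 CPM with JQ1 and 49.4, 90.8 and 254 CPM (lowest, median, highest) with DMSO, a rise of 1.43 ± 0.32 (adjusted p = 0.000684); DMSO well R6, at 254 CPM, is the one that overlaps, and the rest reached 129 CPM at most. BRD3 had 546, 571 and 302 CPM with JQ1 and 63.4, 128 and 235 CPM with DMSO, with no overlap (1.89 ± 0.50, adjusted p = 0.00487). Both subunits of P-TEFb were called, each with a limit. CDK9, the kinase, had 7.96, 7.66 and 4.71 CPM with JQ1 and 1.21, 1.95 and 5.37 CPM with DMSO (1.26 ± 0.40, adjusted p = 0.0232), and the call was lost without JQ1 well R1 (1.12, adjusted p = 0.128) or R2 (1.15, adjusted p = 0.122). CCNT1, cyclin T1, had 164, 51.7 and 48.1 CPM with JQ1 and 25.2, 41.1 and 67.8 CPM with DMSO (1.09 ± 0.25, adjusted p = 0.00113), and without well R1 it was at 0.25 (adjusted p = 0.648). The partners of HEXIM1 in the inactive particle stayed near zero change without passing: LARP7 was at 0.00 ± 0.27 and MEPCE at 0.09 ± 0.26. The second cyclin T gene CCNT2 was at 0.05 ± 0.17. HEXIM2, a paralogue of HEXIM1, had 1.04, 0 and 0.471 CPM with JQ1 and 0, 1.64 and 4.86 CPM with DMSO, too few counts to place its change closely (−1.86 ± 1.2, not called). Of the super elongation complex, AFF1 was at 0.07, AFF4 at 0.43, ELL at −0.56, ELL2 at 1.00, MLLT1 at −0.54 and MLLT3 at 0.57, none of them called; the hydroxylase JMJD6 was at −0.32, also not called. In all, 5 of 17 tested members of this list rose and 0 fell, beside 5.85% and 8.76% over all genes. The median was 0.43 beside −0.00252 over all genes, and without JQ1 well R1 3 members were called. BRD3 overlaps BRD3OS, and both are uncertain for the same reason as HEXIM1.

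**Figure D2:**
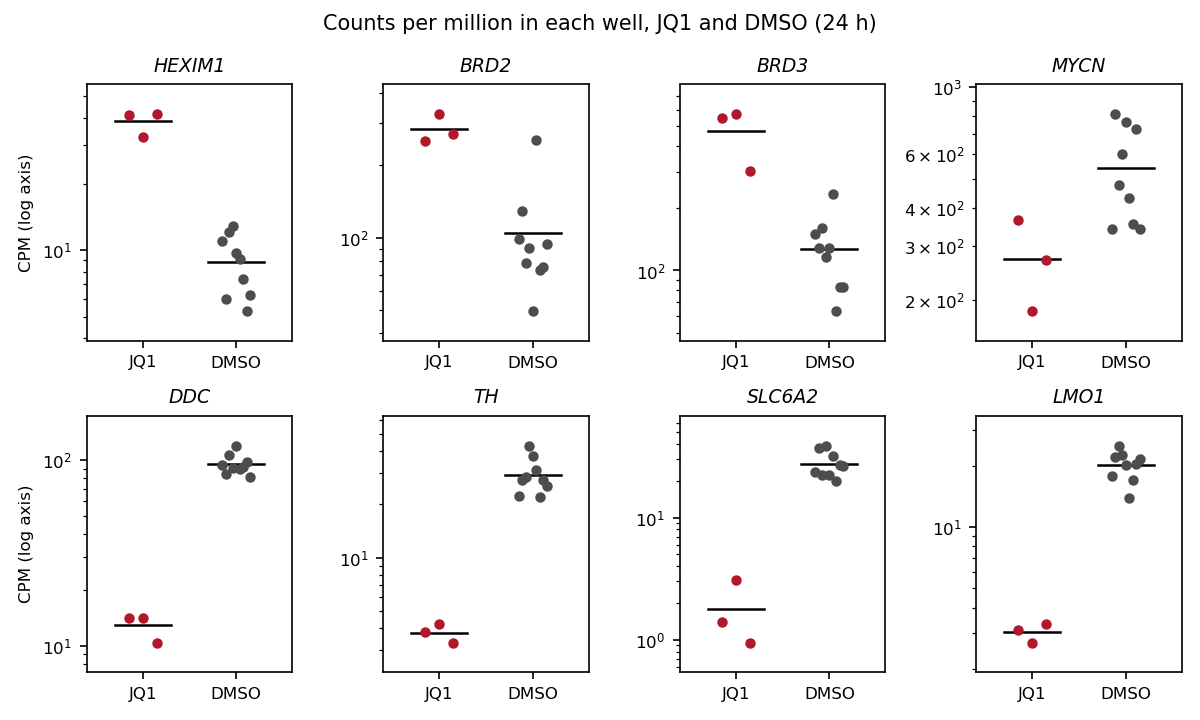
CPM of 8 genes in each well (points, log axis) with JQ1 (left, 3 wells) and DMSO (right, 9 wells); the bar is the group mean. The JQ1 wells lie above all DMSO wells for HEXIM1 and BRD3 and below all of them for DDC, TH, SLC6A2 and LMO1, and the groups overlap by 1 DMSO well for BRD2 and 1 JQ1 well for MYCN.

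Catecholamine synthesis and uptake genes were lower with JQ1. DDC, the aromatic amino acid decarboxylase that makes dopamine, had 14.2, 14.2 and 10.4 CPM with JQ1, against 81.2, 92.2 and 120 CPM (lowest, median, highest) with DMSO. The JQ1 wells were far below all DMSO wells, and DDC fell by 2.87 ± 0.20 on the log2 scale (n = 3 and 9; adjusted p = 4.85e-19). TH, the rate-limiting tyrosine hydroxylase, had 3.81, 4.21 and 3.30 CPM with JQ1 and 22.0, 27.4 and 42.9 CPM with DMSO (−2.94 ± 0.39, adjusted p = 2.09e-08). SLC6A2, the noradrenaline transporter, had 1.38, 3.06 and 0.943 CPM with JQ1 and 19.8, 26.3 and 39.0 CPM with DMSO (−3.90 ± 0.59, adjusted p = 6.22e-07). Neither gene's groups overlapped. DBH, which turns dopamine into noradrenaline, had no count in any JQ1 well and 0, 1.63 and 4.12 CPM with DMSO; against a floor of 3 counts over the JQ1 wells (0.393 CPM) its DMSO mean of 2.03 CPM makes it at least 5.16-fold lower with JQ1 (adjusted p = 0.00784). CYB561, the cytochrome that supplies electrons for that step, fell by 1.48 ± 0.22, and the cotransmitter NPY by 1.37 ± 0.32, with 30.8, 19.9 and 48.5 CPM with JQ1 and 68.0, 86.8 and 97.6 CPM with DMSO.

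The secretory vesicle genes on the same list did not share that direction. VGF, a neuropeptide precursor, rose to 404, 271 and 347 CPM with JQ1, against 99.6, 138 and 163 CPM with DMSO (1.40 ± 0.37, adjusted p = 0.00478). PCSK1N, an inhibitor of prohormone convertase, rose by 0.61 ± 0.15, and the call was lost without JQ1 well R3 (0.50, adjusted p = 0.0652). CHGA, chromogranin A, had 589, 406 and 537 CPM with JQ1 and 380, 504 and 593 CPM with DMSO, so the groups covered the same range (0.07 ± 0.13, adjusted p = 0.782; −0.059 without JQ1 well R1). CHGB was at −0.26 ± 0.33, SCG2 at −0.52 ± 0.21, SCG3 at −0.02 ± 0.25 and SCG5 at 0.06 ± 0.29, none called, nor were GCH1, which makes the hydroxylase cofactor (0.77 ± 0.46), and MAOA, a catecholamine-degrading oxidase near the detection limit (−2.42 ± 1.14). Of 15 tested members 2 rose and 6 fell, with a median of −0.52, beside 5.85% and 8.76% over all genes. DDC lies at chr7:50458442-50565405 and overlaps DDC-AS1, and DBH overlaps DBH-AS1, so reads of these pairs cannot be told apart.

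Among the adrenergic transcription factors, single genes changed in both directions. LMO1 had 3.11, 2.68 and 3.30 CPM with JQ1, against 13.9, 20.3 and 25.1 CPM with DMSO. No wells overlapped, and LMO1 fell by 2.71 ± 0.30 (adjusted p = 7.4e-11; −2.78 to −2.65 with any one well left out). TFAP2B, a sympathoadrenal AP-2 factor, fell to 48.1, 23.7 and 39.1 CPM with JQ1, against 86.2, 103 and 150 CPM with DMSO (−1.52 ± 0.21, adjusted p = 4.59e-08). HAND1, a basic helix-loop-helix factor, fell to 76.1, 92.2 and 92.8 CPM, against 131, 150 and 213 CPM with DMSO (−0.88 ± 0.21, adjusted p = 0.00166). These 3 falls stand beside 2 rises. GATA3 had 388, 352 and 327 CPM with JQ1 and 164, 200.5 and 276 CPM with DMSO, every JQ1 well above every DMSO well (0.81 ± 0.13, adjusted p = 1.68e-06). SOX11, a neural SOX factor, had 516, 521 and 484 CPM with JQ1 and 190, 235 and 587 CPM with DMSO (0.92 ± 0.21, adjusted p = 0.000702), and DMSO well R3 alone lay above the JQ1 wells. The sympathetic lineage factors PHOX2A and HAND2 did not pass. PHOX2A was at −0.38 ± 0.23 and HAND2 at 0.61 ± 0.41. ISL1 (0.22 ± 0.24), a LIM homeodomain factor, was not called either. Nor were the remaining factors, of which TBX2, INSM1, KLF7, EYA1, LMO3, MEIS2, ZNF536, SATB1 and TCF3 lay between −0.71 and 1.05. Of 20 tested factors 2 rose and 3 fell, with a median of −0.17, beside 5.85% and 8.76% over all genes. With so few calls, these values describe single genes and not the factors as a group. LMO1 lies at chr11:8224309-8268787 and overlaps an uncharacterised locus.

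MYCN was lower on average with JQ1 without passing the test. It had 366, 183 and 270 CPM with JQ1, against 341, 478 and 814 CPM (lowest, median, highest) with DMSO, and JQ1 well R1 lay within the DMSO range. The log2 difference was −0.98 ± 0.38 (adjusted p = 0.0653), and it was −1.27 to −0.78 with any one well left out. MYCN varied among the DMSO wells with a coefficient of variation of 35.6%, against 12.5% for DDC and a median of 18% over genes of at least 30 CPM, of which 12.8% varied as much as MYCN or more. Without JQ1 well R1, R2 or R3 the adjusted p was 0.0593, 0.299 and 0.168. The call depends on the fit. MYCN just passed when only JQ1 and DMSO wells were fitted (−0.96, adjusted p = 0.0463) and by DESeq2 (−0.94, adjusted p = 0.042). With no low-count filter the difference was nearly the same but its adjusted p far smaller (−1.0, adjusted p = 4.72e-06). The reason for that gap was not tested. MYCNOS, which overlaps MYCN on the other strand, had 59.2, 57.4 and 47.1 CPM with JQ1 and 72.0, 92.6 and 116 CPM with DMSO and fell by 0.75 ± 0.18 (adjusted p = 0.00153), with the same doubt about shared reads. MYCN lies at chr2:15940550-15947004.

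Of the partners of MYCN, MAX, the obligate dimer partner, fell to 14.9, 19.1 and 15.1 CPM with JQ1, against 27.3, 31.1 and 36.8 CPM with DMSO (−0.94 ± 0.23, adjusted p = 0.00193). MXD4, a MAX partner that opposes MYC proteins, rose to 79.6, 108 and 76.8 CPM, against 27.7, 38.5 and 45.9 CPM with DMSO (1.26 ± 0.23, adjusted p = 2.42e-05). Neither set of JQ1 wells overlapped DMSO. MYC itself was near the detection limit, at 0.692, 0.765 and 1.41 CPM with JQ1 and 0 to 1.63 CPM with DMSO. MXD1, MXD3, MXI1, MNT, MGA, MLX, MLXIP and MYCBP were not called, at −0.35 to 0.71. The list counted 1 rise and 2 falls among 13 tested genes, median 0.20, beside 5.85% and 8.76% over all genes. With so few calls, the list is not set apart from all genes. Of 32 tested MYC target genes 10 fell and 2 rose, with a median of −0.32. The fallers included NME1, a nucleoside diphosphate kinase (239, 204 and 293 CPM with JQ1; 441, 519 and 602 CPM with DMSO; −1.06 ± 0.15), NOP16, a ribosome assembly factor (−1.58 ± 0.28) and HSPE1, a mitochondrial chaperonin (−0.73 ± 0.15). ODC1, the polyamine synthesis enzyme and a textbook MYC target, went the other way, with 125, 131 and 144 CPM with JQ1 and 62.2, 68.0 and 96.6 CPM with DMSO (0.81 ± 0.16, adjusted p = 0.000104). PTMA, named after its value was seen, also rose (0.30 ± 0.10, adjusted p = 0.0368), a call lost without any of the 3 JQ1 wells (0.25 to 0.33, adjusted p = 0.0705 to 0.206) and without DMSO well R1 (0.28, adjusted p = 0.0568) or R3 (0.28, adjusted p = 0.0563).

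A part of the histone genes rose with JQ1: both H3.3 genes, some other replacement histones and a set of the clustered genes. Of 81 histone genes 36 passed the low-count filter, of which 14 rose and 1 fell, beside 5.85% and 8.76% over all genes. The median change was 0.85. Genes low in DMSO can pass this filter because they are high with JQ1, so the count and the median may lean upward. H2AC18, for example, had a mean of 10.7 CPM with JQ1 and 1.36 CPM with DMSO. H3-3A and H3-3B both encode the replacement histone H3.3. H3-3A had 7798, 7439 and 8215 CPM with JQ1, against 3785, 4056 and 5112 CPM with DMSO (0.90 ± 0.12, adjusted p = 2.89e-08). H3-3B had 760, 698 and 626 CPM with JQ1 and 265, 307 and 341 CPM with DMSO (1.21 ± 0.12, adjusted p = 1.53e-12). Neither gene's groups overlapped, and the summed level of the 36 genes, 9727 to 10510 CPM with JQ1 and 5704 to 7034 CPM with DMSO, was mostly H3-3A. The linker histone H1-10 rose (33.6, 27.6 and 31.6 CPM with JQ1; 9.1, 12.5 and 22.7 CPM with DMSO; 1.07 ± 0.27), as did the H2A variant gene H2AZ2 (0.63 ± 0.16) and H2AW (1.25 ± 0.34). H2AZ2 lost its call without JQ1 well R1 (0.54, adjusted p = 0.051), and H2AW without R1 (1.16, adjusted p = 0.0526) or R3 (1.08, adjusted p = 0.0767). MACROH2A2, a macro-domain H2A variant, was the one that fell (28.7, 30.2 and 30.2 CPM with JQ1; 50.9, 78.2 and 94.3 CPM with DMSO; −1.30 ± 0.37, adjusted p = 0.00927). Other H2A variant genes were not called. H2AZ1 had a mean of 1019 CPM with JQ1 and 1211 CPM with DMSO (−0.25 ± 0.15, adjusted p = 0.294). H2AX was at 0.46 ± 0.20, H2AJ at 0.76 ± 0.38 and MACROH2A1 at −0.39 ± 0.15.

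The clustered, replication-dependent histone genes that rose did so from a few counts a well. Their transcripts normally end in a stem-loop and not in a poly(A) tail, and the libraries were made from polyadenylated RNA by their labels, so these values concern the polyadenylated share. H2BC21 had 8.30, 8.42 and 1.89 CPM with JQ1 and 0.375, 0.986 and 1.63 CPM with DMSO (2.68 ± 0.69, adjusted p = 0.00374). H2AC6 had 6.23, 6.89 and 3.77 CPM with JQ1 and 0.203, 0.986 and 2.80 CPM with DMSO (2.40 ± 0.70, adjusted p = 0.0111), a call lost without JQ1 well R2 (2.21, adjusted p = 0.0697). No JQ1 well of either gene reached down into the DMSO range. H2BC5 had 7.96, 5.74 and 2.83 CPM with JQ1 and 0.467, 1.12 and 3.05 CPM with DMSO (2.11 ± 0.58, adjusted p = 0.00723), and lost its call without JQ1 well R1 (1.74, adjusted p = 0.0984). H2BC8 had 5.88, 11.1 and 8.95 CPM with JQ1 and 2.44, 3.17 and 4.50 CPM with DMSO (1.40 ± 0.45, adjusted p = 0.0242), and lost it without R2 (1.15, adjusted p = 0.188) or R3 (1.37, adjusted p = 0.0863). The others called were H2AC8, H2AC18, H3C8 and H2BC6. Of these, H2AC8 lost its call without JQ1 well R3 (adjusted p = 0.107) and H2BC6 without R2 (adjusted p = 0.118). H3C8 lost it without any one JQ1 well (adjusted p = 0.0936 to 0.11). H2BC6 had 0, 23 and 4 counts with JQ1 and 1 count over the DMSO wells, so no fold is given. Members of these clusters with near-identical coding sequence, H2AC18 among them, can share reads, and H3-3A and H3-3B can share reads with pseudogene copies; their values are uncertain to that extent.

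Promoters of 4 of these clustered genes are shown because the genes rose together and carry the classic histone promoter elements. They are RefSeq sequences of GRCh38.p14, from 250 bases before to 50 bases after the start: H2BC21 at chr1:149886633-149886932 (minus strand), H2BC8 at chr6:26216639-26216938 (minus), H2AC6 at chr6:26123922-26124221 (plus) and H2BC5 at chr6:26157871-26158170 (plus). Capitals mark the octamer ATTTGCAT, CCAAT and TATAAA, read on either strand.
H2BC21: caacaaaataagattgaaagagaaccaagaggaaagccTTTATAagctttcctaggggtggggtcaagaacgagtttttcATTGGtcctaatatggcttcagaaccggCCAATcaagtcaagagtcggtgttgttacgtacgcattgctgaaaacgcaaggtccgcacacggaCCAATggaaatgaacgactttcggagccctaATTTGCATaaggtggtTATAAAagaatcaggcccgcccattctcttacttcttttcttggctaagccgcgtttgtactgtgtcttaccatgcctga
H2BC8: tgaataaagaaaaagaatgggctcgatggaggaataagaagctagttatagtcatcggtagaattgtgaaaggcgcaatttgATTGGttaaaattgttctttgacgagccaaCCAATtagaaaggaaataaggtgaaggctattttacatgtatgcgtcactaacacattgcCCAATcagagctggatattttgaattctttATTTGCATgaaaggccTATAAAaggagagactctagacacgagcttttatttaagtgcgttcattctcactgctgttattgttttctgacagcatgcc
H2AC6: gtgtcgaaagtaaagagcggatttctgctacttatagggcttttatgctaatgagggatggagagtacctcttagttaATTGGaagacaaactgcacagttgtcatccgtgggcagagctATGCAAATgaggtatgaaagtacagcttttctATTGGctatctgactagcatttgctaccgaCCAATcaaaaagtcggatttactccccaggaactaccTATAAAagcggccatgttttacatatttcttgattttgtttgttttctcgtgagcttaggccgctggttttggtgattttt
H2BC5: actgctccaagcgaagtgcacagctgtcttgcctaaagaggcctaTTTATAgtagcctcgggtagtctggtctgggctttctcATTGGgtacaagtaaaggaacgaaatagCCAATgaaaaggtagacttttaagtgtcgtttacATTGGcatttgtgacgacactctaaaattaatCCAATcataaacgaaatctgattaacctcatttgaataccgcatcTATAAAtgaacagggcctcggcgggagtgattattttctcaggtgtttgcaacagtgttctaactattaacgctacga
The octamer, which the factor OCT1 reads in H2B promoters, begins at −46 in H2BC21, −48 in H2BC8 and −130 in H2AC6, and was not found in the H2BC5 window. The TATAAA nearest the start begins at −30, −32, −31 and −28 in the order shown. A promoter entry was present for 12 of the 14 histone genes that rose and for 20 of the other tested histone genes. The octamer was in 6 of those 12 and 4 of those 20, against 1.8% of all promoters, CCAAT in 11 and 13, TATAAA in 9 and 9, and the E-box CACGTG in 0 and 0. These counts describe letters in a window and carry no test.

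**Figure D3:**
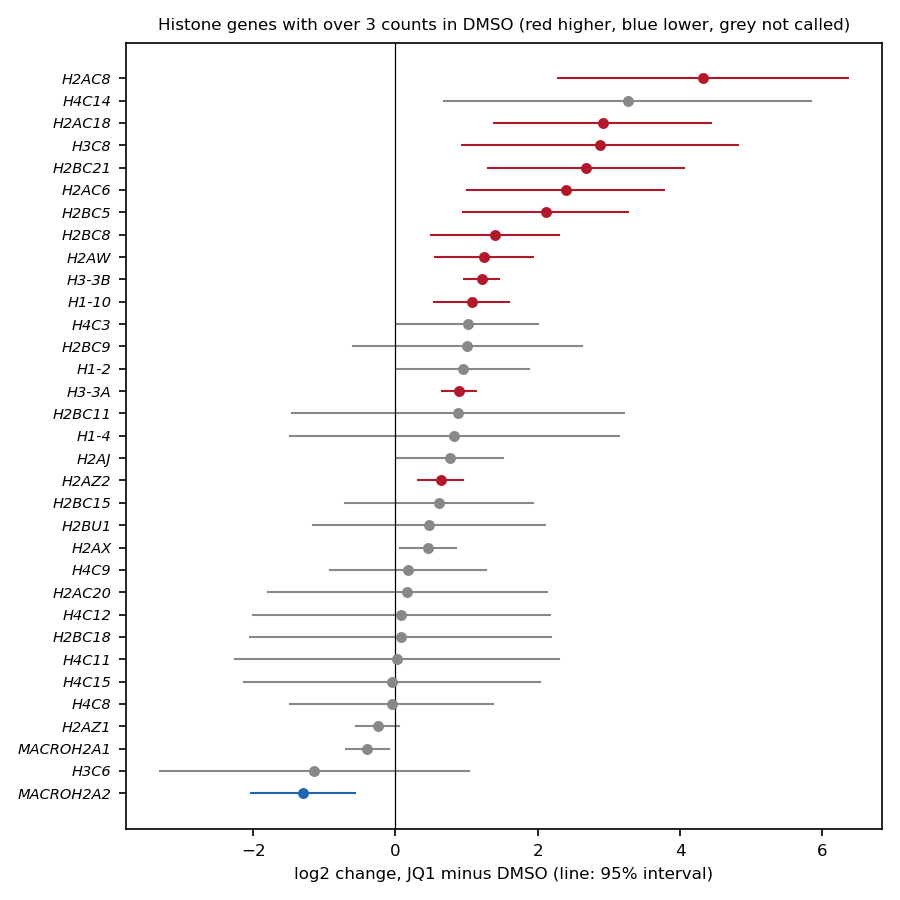
Log2 change of tested histone genes with JQ1 minus DMSO (points) with the 95% interval of the edgeR fit (lines), sorted by size; red was called higher, blue called lower, grey not called. H3-3B and H3-3A have narrow intervals at 1.21 and 0.90, the clustered genes such as H2BC21 and H2AC6 have larger changes with wide intervals, MACROH2A2 is the one called fall, and H2BC6 and H3C13, with at most 3 counts over the DMSO wells, are not drawn.

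Neuronal differentiation genes moved in both directions, 5 rising and 8 falling of 23 tested, beside 5.85% and 8.76% over all genes. Their median was 0.13. GAP43, a growth cone protein, had 293, 289 and 304 CPM with JQ1, against 835, 1040 and 1320 CPM with DMSO (−1.84 ± 0.15, adjusted p = 1.37e-15). GAL, the neuropeptide galanin, had 29.4, 49.0 and 21.7 CPM with JQ1 and 99.4, 149 and 186 CPM with DMSO (−2.08 ± 0.33, adjusted p = 1.65e-06). For both the JQ1 wells lay below every DMSO well. TUBB3, neuronal tubulin, rose to 912, 547 and 900 CPM, against 394, 458 and 580 CPM with DMSO (0.77 ± 0.13, adjusted p = 1.24e-05). NCAM1, a neural adhesion molecule, had 94.5, 541 and 130 CPM with JQ1 and 76.7, 104 and 120 CPM with DMSO; its call (1.30 ± 0.23, adjusted p = 1.49e-05) came from JQ1 well R2, without which it was at 0.10 (adjusted p = 0.859). The further rises were those of INA (0.83 ± 0.18), ELAVL3 (0.52 ± 0.13) and NNAT (0.46 ± 0.15). ELAVL3 lost its call without JQ1 well R2 (0.35, adjusted p = 0.162), and NNAT without R1 (0.43, adjusted p = 0.0999) or R2 (0.29, adjusted p = 0.337). Without R2, 7 members of the list were called.

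Among neuroblastoma receptor and growth genes 1 rose and 4 fell of 20, beside 5.85% and 8.76% over all genes, with a median of −0.27. RET, a receptor tyrosine kinase, fell to 53.6, 50.5 and 88.1 CPM with JQ1, against 108, 120 and 131 CPM with DMSO (−0.93 ± 0.16, adjusted p = 6.06e-06). DLK1, a Notch ligand of progenitor cells, fell to 7.27, 2.30 and 1.89 CPM, against 19.7, 34.8 and 63.7 CPM with DMSO (−3.34 ± 0.64, adjusted p = 6.46e-05). CCND1, cyclin D1, fell to 285, 280 and 304 CPM, against 409, 634 and 837 CPM with DMSO (−1.06 ± 0.29, adjusted p = 0.00569). For these 3 genes the wells did not overlap. The single rise, IGF2BP3 (9.34, 56.3 and 13.7 CPM with JQ1; 4.44, 7.2 and 15.8 CPM with DMSO; adjusted p = 0.0447), came from JQ1 well R2: it was at 1.70 ± 0.60 with it and 0.47 without (adjusted p = 0.78), and leaving out one of 7 DMSO wells also ended the call. The fourth fall, that of HMGA1 (−0.65 ± 0.24, adjusted p = 0.0496), was lost without any one JQ1 well and without one of 5 DMSO wells. Without JQ1 well R2 or DMSO well R1.1, 3 members of this list were called.

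The mesenchymal list, genes of the alternative neuroblastoma state, counted 1 rise and 3 falls of 20, with a median of −0.04. Over all genes the shares were 5.85% and 8.76%, and the values below describe single genes. COL1A1, a fibrillar collagen, had 60.2, 66.6 and 75.4 CPM with JQ1 and 192, 226 and 295 CPM with DMSO (−1.74 ± 0.18, adjusted p = 9.98e-12). COL3A1 fell by 2.16 ± 0.45 and the DNA sensor IFI16 by 1.70 ± 0.33. LMNA, lamin A/C, rose (0.85 ± 0.23, adjusted p = 0.00548), a call lost without JQ1 well R1 (0.69, adjusted p = 0.0941). Matrix and stromal genes also fell among markers of other cell types: 0 of 12 tested markers rose and 5 fell, namely COL1A1, COL3A1, the proteoglycans DCN (−3.81 ± 0.74) and LUM (−1.99 ± 0.43), and PDGFRB (−1.29 ± 0.34; −1.16 with adjusted p = 0.054 without JQ1 well R3). Their summed level was 102.1 to 103.7 CPM with JQ1 and 283 to 387.4 CPM with DMSO, mostly COL1A1. Of the 25 markers listed, 13 did not pass the filter.

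DNA replication genes fell with JQ1, and no mitotic gene on the list fell. Of 24 tested S phase and G1 cyclin genes 6 fell and 0 rose, with a median of −0.36, beside 8.76% and 5.85% over all genes. MCM7, a subunit of the replicative helicase, had 76.1, 70.8 and 72.1 CPM with JQ1, against 108, 157 and 199 CPM with DMSO (−1.15 ± 0.18, adjusted p = 6.36e-07). The helicase subunits MCM5 (−0.98 ± 0.15) and MCM3 (−0.58 ± 0.13) and the helicase factor GINS2 (−0.87 ± 0.21) fell too, with no overlap between groups, and the remaining falls were those of MCM6 and CCND1. Of 26 G2 and mitosis genes, with a median of −0.12, none fell and 2 rose, a share of rises near the 5.85% over all genes. These were the spindle motor KIF11 (0.65 ± 0.20, adjusted p = 0.0188) and the checkpoint kinase BUB1 (0.61 ± 0.22, adjusted p = 0.0454), named after their values were seen. KIF11 was not called without JQ1 well R1 (0.62, adjusted p = 0.0836) or R3 (0.54, adjusted p = 0.149), nor BUB1 without R2 (0.61, adjusted p = 0.135), R3 (0.39, adjusted p = 0.392) or one of 5 DMSO wells, so the list held 0 calls without R3. Of 21 p53 targets and CDK inhibitors 2 rose and 0 fell, with a median of 0.41. SESN2, a stress-induced regulator of mTORC1, had 24.6, 9.95 and 23.6 CPM with JQ1 and 2.65, 4.02 and 8.62 CPM with DMSO (2.07 ± 0.32, adjusted p = 6.66e-07), and CDKN2D, an inhibitor of CDK4 and CDK6, had 13.5, 14.2 and 18.9 CPM with JQ1 and 1.48, 3.94 and 7.32 CPM with DMSO (2.01 ± 0.44, adjusted p = 0.000564). In the BCL2 family 1 of 14 genes was called, the proapoptotic BID (−0.80 ± 0.21, adjusted p = 0.00491), which was not called without JQ1 well R3 (−0.71, adjusted p = 0.0591). The family held 2 calls when any one JQ1 well, or DMSO well R5, was left out.

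Many genes for the nuclear-encoded respiratory chain and ATP synthase fell, in the longest of the lists. Larger shares fell among markers of other cell types (5 of 12), catecholamine genes (6 of 15) and neuronal genes (8 of 23). Over all genes 8.76% fell, and 17.8% in the fifth of genes highest in DMSO. Of 98 tested 32 fell and 1 rose, with a median of −0.36, and their summed level was 21540 to 24840 CPM with JQ1 and 26470 to 32490 CPM with DMSO. NDUFC1, a complex I subunit, had 74.4, 52.0 and 48.1 CPM with JQ1, against 115, 166 and 193 CPM with DMSO (−1.42 ± 0.19, adjusted p = 1.82e-08). ATP5MC1, a subunit of the ATP synthase ring, had 91.0, 87.6 and 80.1 CPM with JQ1 and 177, 219 and 295 CPM with DMSO (−1.35 ± 0.20, adjusted p = 1.87e-07). The complex I subunits NDUFB4 (−1.04 ± 0.15) and NDUFB6 (−0.76 ± 0.12) also fell without overlap. The 1 rise was NDUFA6-DT, a divergent transcript and not a subunit (1.85 ± 0.56), lost without JQ1 well R2 (1.84, adjusted p = 0.0556) or R3 (1.64, adjusted p = 0.0983). Without R1, and likewise without R2, 21 members were called. Of the 13 mitochondrially encoded protein genes edgeR called 0, with a median of 0.10; 0 had an unadjusted p under 0.05, DESeq2 called 0, and 1 was called when only JQ1 and DMSO wells were fitted.

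Of 82 cytosolic ribosomal protein genes 4 rose and 3 fell, with a median of −0.08, beside 5.85% and 8.76% over all genes. RPL12 rose to 2691, 2588 and 2777 CPM with JQ1, against 1639, 1999 and 2335 CPM with DMSO (0.42 ± 0.10), and RPL30 fell to 247, 231 and 231 CPM, against 296, 323 and 464 CPM with DMSO (−0.52 ± 0.12). RPL14 (−0.43 ± 0.11) lost its call without JQ1 well R2 (−0.35, adjusted p = 0.0726) and RPL28 (0.45 ± 0.12) without R1 (0.35, adjusted p = 0.124); without R1 the list held 4 calls.

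Of 29 Pol II, Mediator and elongation genes 2 rose and 3 fell, with a median of −0.19; these shares are near the 5.85% and 8.76% over all genes, and the values below describe single genes. POLR2A, the largest subunit of RNA polymerase II, rose to 144, 102 and 116 CPM with JQ1, against 44.2, 67.7 and 78.2 CPM with DMSO (0.89 ± 0.16, adjusted p = 2.5e-05). NELFCD, a subunit of the negative elongation factor that holds paused polymerase, fell to 61.6, 50.5 and 41.5 CPM, against 86.2, 109 and 168 CPM with DMSO (−1.14 ± 0.24, adjusted p = 0.000246). CCNH, the cyclin of the CDK-activating kinase, fell by 0.72 ± 0.18, and NELFE, of the same elongation factor, by 0.58 ± 0.17. NELFE lost its call without JQ1 well R1 (−0.57, adjusted p = 0.0667) or R2 (−0.53, adjusted p = 0.0944), and CDK13, an elongation kinase that rose (0.68 ± 0.23, adjusted p = 0.0374), without R2 (0.45, adjusted p = 0.363), R3 (0.65, adjusted p = 0.131) or one of 4 DMSO wells. Without R2 the list held 3 calls.

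Of 23 ATF4 stress genes 2 rose, SESN2 among them, and 3 fell, with a median of −0.21. Over all genes the shares were 5.85% and 8.76%, so the calls below describe single genes. STC2, a secreted stress glycoprotein, had 5.54, 3.06 and 7.54 CPM with JQ1 and 9.75, 15.4 and 23.5 CPM with DMSO (−1.55 ± 0.24, adjusted p = 1.22e-06). The serine synthesis enzyme PSAT1 (−0.44 ± 0.14, adjusted p = 0.0211) was not called without DMSO well R5 (−0.37, adjusted p = 0.0532), JQ1 well R1 (−0.48, adjusted p = 0.0505) or R2 (−0.41, adjusted p = 0.114), and the asparagine synthetase ASNS (0.54 ± 0.17, adjusted p = 0.0246) not without any one JQ1 well (0.49 to 0.56, adjusted p = 0.0605 to 0.132). The ATF4 list held 2 calls without JQ1 well R2 and 3 without R1, R3 or DMSO well R5. Of 21 sterol synthesis genes 3 rose and 0 fell, with a median of 0.19. HSD17B7 had 33.2, 32.1 and 31.6 CPM with JQ1 and 7.56, 13.3 and 21.5 CPM with DMSO (1.24 ± 0.27), and SQLE, squalene epoxidase, had 97.6, 94.2 and 100.4 CPM with JQ1 and 32.1, 50.5 and 71.7 CPM with DMSO (0.89 ± 0.21). The third, the sterol carrier STARD4 (1.01 ± 0.31), lost its call without JQ1 well R1 (0.97, adjusted p = 0.0714) or R2 (0.80, adjusted p = 0.178).

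Of 19 genes induced early by MAPK signals or feeding back on them, 2 went up and 2 down, with a median of 0.54. Over all genes these shares were 5.85% and 8.76%. IER5 (1.49 ± 0.34) and the zinc finger factor EGR1 rose, the second with 30.8, 37.1 and 27.8 CPM with JQ1 and 5.50, 12.1 and 23.0 CPM with DMSO (1.35 ± 0.32, adjusted p = 0.00149). The ERK feedback regulators DUSP4 (−0.62 ± 0.15) and SPRY4 (−1.0 ± 0.26) fell. Among 24 autophagy and lysosomal genes there were 5 rises and 2 falls, with a median of −0.10. NEU1, the lysosomal sialidase, had 61.6, 41.3 and 60.8 CPM with JQ1 and 17.6, 19.8 and 22.4 CPM with DMSO (1.45 ± 0.21, adjusted p = 1.39e-07), and the autophagy kinase ULK1 (1.04 ± 0.26) and the autophagy receptor SQSTM1 (0.71 ± 0.18) rose with it. ATP6V0D1, a proton pump subunit (0.97 ± 0.25), lost its call without JQ1 well R3 (0.57, adjusted p = 0.224), which left 3 calls in the list. Glycolytic and hypoxia-responsive genes gave 1 rise and 2 falls among 21, near the shares over all genes, with a median of −0.07. Of these, LDHA, lactate dehydrogenase A, fell to 19.7, 13.0 and 17.4 CPM with JQ1, against 28.9, 36.4 and 46.7 CPM with DMSO (−1.07 ± 0.24, adjusted p = 0.000807). BNIP3L, a mitophagy receptor, rested on JQ1 well R2 (66.4, 414 and 147 CPM with JQ1; 31.5, 60.9 and 121 CPM with DMSO; 1.67 ± 0.43, and 0.66 with adjusted p = 0.485 without it), and the glycolytic ENO2 (−0.60 ± 0.17) lost its call without the same well (−0.52, adjusted p = 0.0909), which left 1 call. Of 15 interferon and antigen presentation genes 2 rose and 0 fell, with a median of 0.37. IRF7, an interferon regulatory factor named after its value was seen, was one of these, at 6.92, 5.74 and 5.66 CPM with JQ1 and 0, 0.329 and 2.24 CPM with DMSO. The list held 1 call without JQ1 well R1 or R3, or DMSO well R3 or R3.1.

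**Figure D4:**
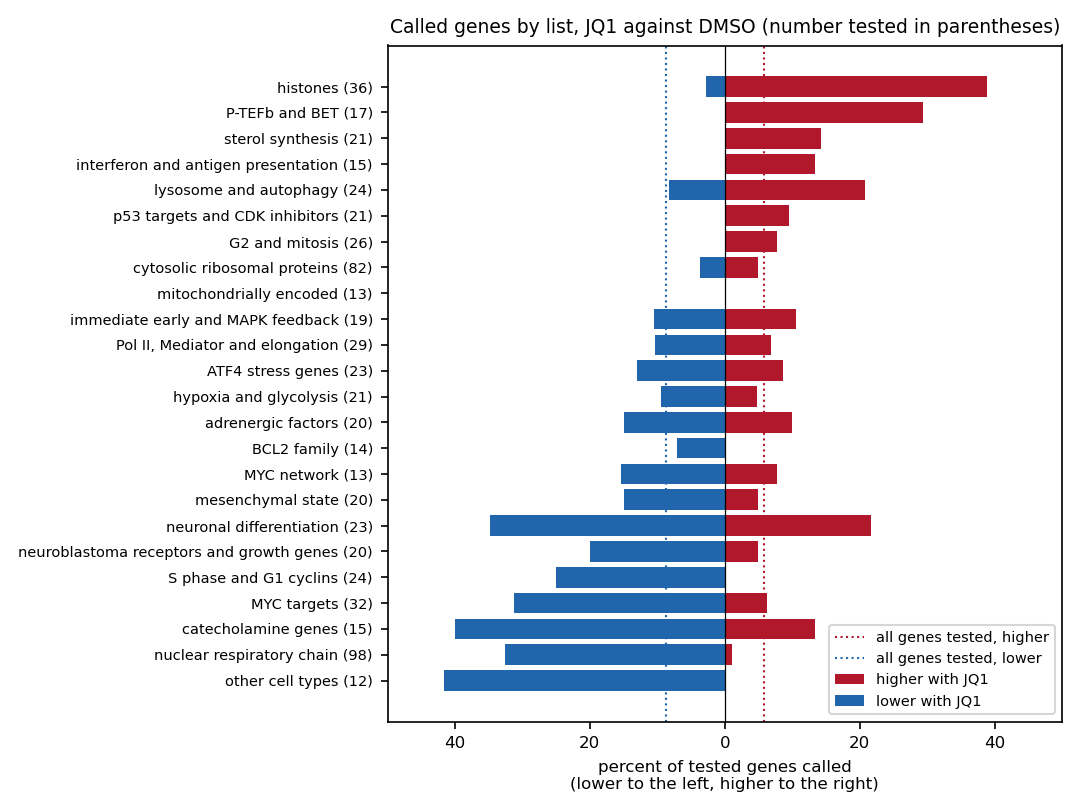
Percent of the tested genes of each list that were called lower with JQ1 (blue, to the left) or higher (red, to the right), against DMSO; the number tested is in parentheses and dotted lines mark the shares over all 15596 genes, 8.76% lower and 5.85% higher. Histone and P-TEFb and BET genes extend furthest to the right, and markers of other cell types, catecholamine genes, neuronal genes and the nuclear respiratory chain furthest to the left.

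Among genes of at least 30 CPM in a group whose wells did not overlap, the 15 largest rises were led by CCDC200, an uncharacterised coiled-coil gene with 67.5, 67.7 and 16 CPM with JQ1 and 0, 1.56 and 3.00 CPM with DMSO (5.00 ± 0.55, adjusted p = 4.38e-11). NEAT1, the long noncoding RNA that builds paraspeckles, had 1199, 1183 and 1274 CPM with JQ1, against 162, 241 and 315 CPM with DMSO (2.34 ± 0.20, adjusted p = 3.85e-15). DCXR, a carbonyl reductase of sugar metabolism, had 470, 411 and 409 CPM with JQ1 and 102, 110 and 134 CPM with DMSO (1.92 ± 0.13, adjusted p = 1.93e-20). In each of these the lowest JQ1 well stood well clear of the highest DMSO well. NANOS1, a translational repressor, was even between wells, at 37.4, 37.5 and 38.2 CPM with JQ1 and 1.94, 6.06 and 10.4 CPM with DMSO (2.52 ± 0.36). The histone pseudogene H2BC19P had 79.6, 70.4 and 61.7 CPM with JQ1 and 1.31, 7.10 and 22.4 CPM with DMSO (3.1 ± 0.41), and as a near copy of H2B genes it may hold their reads. SESN3, a paralogue of SESN2, had 25.9, 73.1 and 31.6 CPM with JQ1 and 4.87, 9.57 and 11.5 CPM with DMSO (2.23 ± 0.39). KCTD13, a cullin adaptor (2.1 ± 0.44), and APOLD1, an endothelial early response gene (1.86 ± 0.31), completed the rises that kept their call without any single well, with HEXIM1 and BRD3.

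The remaining 5 of the 15 rises lost their call when a single JQ1 well was left out. ZNF83, a zinc finger gene, had 1104, 20.7 and 19.8 CPM with JQ1 and 11.2, 15.1 and 19.5 CPM with DMSO; it was at 4.64 ± 0.52 with JQ1 well R1 and 0.39 without it (adjusted p = 0.726). BTBD7P1, a pseudogene, was at 3.50 with well R3 and 1.48 without it (adjusted p = 0.452). CHD1, a chromatin remodeller, had 72.7, 287 and 72.6 CPM with JQ1 and 19.7, 42.8 and 64.1 CPM with DMSO, and fell short of the threshold without R2 (0.78, adjusted p = 0.0962). TACC3, a spindle protein (2.01 ± 0.61), was not called without R1 (1.85, adjusted p = 0.0803) or R2 (1.95, adjusted p = 0.0628), and FRY (1.79 ± 0.49) not without R3 (1.48, adjusted p = 0.0865).

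The 15 largest falls, chosen by the same rule, included DDC and DLK1. DKK1, a secreted Wnt antagonist, had 30.8, 33.7 and 46.2 CPM with JQ1, against 222, 291 and 412 CPM with DMSO (−2.99 ± 0.31, adjusted p = 4.99e-12). IGFBP3 had 6.92, 8.42 and 3.30 CPM with JQ1 and 32.2, 43.0 and 62.5 CPM with DMSO (−2.88 ± 0.28), and IGFBP5, likewise an insulin-like growth factor binding protein, 21.8, 16.8 and 16.5 CPM with JQ1 and 89.1, 111 and 168 CPM with DMSO (−2.62 ± 0.29). ISLR, a leucine-rich repeat protein, fell to 1.73, 2.30 and 2.36 CPM, against 28.6, 35.7 and 44.4 CPM with DMSO (−4.07 ± 0.45, adjusted p = 4.5e-11). ADAM12, a metalloproteinase, fell by 2.73 ± 0.30. NSG2, a neuronal endosome protein (−2.75 ± 0.26), and PIANP, a neuronal membrane protein with 8.30, 5.74 and 3.30 CPM with JQ1 and 59.7, 66.7 and 85.2 CPM with DMSO (−3.57 ± 0.23, adjusted p = 1.93e-20), also fell. Further falls were those of HDAC9, a class IIa histone deacetylase (3.11, 11.9 and 2.36 CPM with JQ1; 29.8, 42.0 and 52.5 CPM with DMSO; −2.82 ± 0.49), AKR1C2, a steroid-converting reductase (−2.90 ± 0.27), the monocarboxylate transporter relative SLC16A9 (−2.44 ± 0.30), GTF3C6, a subunit of the Pol III factor TFIIIC (9.69, 19.5 and 8.95 CPM with JQ1; 67.7, 100.3 and 126 CPM with DMSO; −2.99 ± 0.25), and UFC1, the conjugating enzyme of the UFM1 pathway (−2.39 ± 0.34). MORC2-AS1, an antisense transcript that overlaps MORC2, had the largest fitted fall, −4.36 ± 1.13, but DMSO well R3 had 266 CPM and the other DMSO wells at most 10.3 CPM; without R3 it was at −2.03 (adjusted p = 0.0745).

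Set directly against the CDK9 inhibitor flavopiridol, JQ1 left HEXIM1 higher and the catecholamine enzymes lower. Of the 15596 genes 4264 (27.3%) differed, 2579 higher with JQ1 (16.5%) and 1685 lower (10.8%). The flavopiridol libraries were far shallower than those of JQ1, and the split depends on the scaling: the median over all genes was 0.29, 60.5% of the calls were higher, and these were 0.61 and 76.4% by total counts and 0.14 and 51.6% with the RLE scaling. HEXIM1 had 41.2, 32.5 and 41.5 CPM with JQ1 and 0, 5.23 and 0 CPM with flavopiridol (adjusted p = 2.93e-09). These were 292 counts with JQ1 and 3 with flavopiridol, all in well R2, a ratio of 21.9 with an exact 95% interval of 7.42 to 107 that covers counting error only. DDC had 50.9, 59.2 and 58.0 CPM with flavopiridol, so that JQ1 was lower by −2.11 on the log2 scale, TH by −4.62 and LMO1 by −2.07. GATA3 was far higher with JQ1, at 388, 352 and 327 CPM, against 56.0, 64.5 and 47.2 CPM with flavopiridol (2.67 ± 0.18, adjusted p = 4.81e-20). MYCN, at 163, 209 and 156 CPM with flavopiridol, did not pass the test (0.64, adjusted p = 0.303), but was called without the low-count filter (0.69, adjusted p = 0.0171). H3-3A had 7213, 5819 and 7255 CPM with flavopiridol (0.21 ± 0.16, adjusted p = 0.333; called at 0.54 by total counts), whereas H3-3B differed strongly, with 760, 698 and 626 CPM with JQ1 and 98.3, 55.8 and 97.9 CPM with flavopiridol (3.05 ± 0.17, adjusted p = 1.05e-23).

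By list, JQ1 against flavopiridol gave 8 higher and 0 lower of the 17 P-TEFb and BET genes, 0 higher and 7 lower of the 15 catecholamine genes, 8 and 4 of the 20 adrenergic factors, 6 and 4 of the 36 histone genes, 14 and 0 of the 26 mitotic genes, 8 and 33 of the 82 ribosomal protein genes and 0 and 12 of the 13 mitochondrially encoded genes. Over all genes 16.5% were higher and 10.8% lower, and the histone shares were near these. Like the split over all genes, these counts depend on the scaling. H2BC8 was one of the 4 histone genes lower with JQ1, at 5.88, 11.1 and 8.95 CPM with JQ1 and 105, 111 and 118 CPM with flavopiridol. The 5 largest differences upward by the naming rule were CAP1, an actin regulator with 396, 298 and 320 CPM with JQ1 and no count with flavopiridol (at least 193-fold higher, against a floor of 3 counts over the group, 1.75 CPM), SLC24A5 (at least 62.3-fold), HNF4A (at least 54.3-fold, with 280 of its CPM in JQ1 well R3 and 2.08 and 2.68 in the others), ADARB1 (at least 23.6-fold, with 110 CPM in well R1 and 7.27 and 6.60 in the others) and TUBA1C (250 CPM in well R1, 8.42 and 17.4 in the others). Downward they were GSTM1, a glutathione transferase with no count in a JQ1 well and 142, 87.1 and 83.4 CPM with flavopiridol (at least 265-fold lower), CLVS1 (0.692, 0 and 0 CPM with JQ1; 117, 188 and 122 CPM with flavopiridol), PRMT8, ZNF561 (41.9, 27.2 and 25.4 CPM with JQ1; 1682, 869 and 796 CPM with flavopiridol) and DLK1.

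Against palbociclib, which blocks entry into S phase, JQ1 kept the proliferation genes higher and the catecholamine genes lower. Of all genes 2156 (13.8%) differed, 919 higher with JQ1 (5.89%) and 1237 lower (7.93%), with a median of 0.01. Of 26 mitotic genes 18 were higher and 0 lower, with a median of 1.25, and of 24 S phase and G1 cyclin genes 16 were higher and 1, CCND1, lower. CDK1, the mitotic kinase, had 135, 122 and 138 CPM with JQ1 and 27.2, 43.0 and 31.9 CPM with palbociclib, and RRM2, a ribonucleotide reductase subunit, 186, 199.8 and 226 CPM with JQ1 and 29.5, 17.2 and 24.8 CPM with palbociclib. HEXIM1 was higher with JQ1 than with palbociclib, which gave 18.6, 15.7 and 8.81 CPM (1.41 ± 0.38, adjusted p = 0.00534), a call lost without palbociclib well R3 (1.15, adjusted p = 0.0716). DDC, at 104, 127 and 126 CPM with palbociclib, was at −3.19, TH at −2.75, SLC6A2 at −3.52 and LMO1 at −2.02, all called, and 8 of the 15 catecholamine genes were lower with JQ1 and 0 higher. The adrenergic factors did not share that direction: 2 of 20 were higher and 3 lower, with a median of 0.10. GATA3 was higher with JQ1, by 0.82 to 1.11 on the log2 scale with any one well left out. MYCN was lower with JQ1, at 366, 183 and 270 CPM, against 844, 635 and 1033 CPM with palbociclib, and the wells did not overlap (−1.61, adjusted p = 0.00692; −1.40 and 0.0634 without JQ1 well R2). BRD2 was higher with JQ1 (1.52 ± 0.43, adjusted p = 0.00895), a call lost without palbociclib well R1 (1.2, adjusted p = 0.101). Histone genes counted 8 higher and 1 lower, with H3-3A at 3498, 4020 and 3637 CPM with palbociclib (1.07 ± 0.16). The 5 largest differences downward were AKR1C1, AKR1C2, PIANP, TMEM204 and NUPR1; AKR1C2 had 11.8, 10.3 and 13.7 CPM with JQ1 and 159, 169 and 202 CPM with palbociclib. Upward they were ADARB1, CCDC200, ZNF83, RAD54L2 and IGHMBP2, of which ADARB1, ZNF83 and RAD54L2 each have 1 JQ1 well at several times the others.

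Against pomiferin at the same labelled concentration, JQ1 left stress genes lower and mitotic, respiratory chain and histone genes higher. Of all genes 3662 (23.5%) differed, 1700 higher with JQ1 (10.9%) and 1962 lower (12.6%), with a median of 0.03. Of 23 ATF4 stress genes 18 were lower with JQ1 and 0 higher, with a median of −1.99. The 5 largest differences downward were TRIB3, GDF15, FGF19, HSPA1A and NDRG1; TRIB3, a pseudokinase of the ATF4 program, had 0.692, 0.765 and 0.943 CPM with JQ1 and 130, 91.1 and 74.4 CPM with pomiferin, and the heat shock protein HSPA1A 14.5, 36.7 and 18.4 CPM with JQ1 and 1573, 2161 and 1655 CPM with pomiferin. Upward they were HNF4A, PEG10, HMGN1P26, CCDC200 and PLLP, and PEG10, a retrotransposon-derived imprinted gene, had 450, 134 and 180 CPM with JQ1 and 4.1, 4.64 and 12.2 CPM with pomiferin. HEXIM1, at 10.0, 2.11 and 10.6 CPM with pomiferin, was higher with JQ1 (2.33 ± 0.39, adjusted p = 2.93e-06). DDC, at 24.1, 24.0 and 18.5 CPM with pomiferin, was lower with JQ1 by −0.77 on the log2 scale (adjusted p = 0.00485; −0.63 and 0.0578 without JQ1 well R3). LMO1 was at −0.86 (adjusted p = 0.0751), TH at 0.67 (adjusted p = 0.372) and SLC6A2 at 2.53 (adjusted p = 0.0674), not called. MYCN was higher with JQ1, at 366, 183 and 270 CPM, against 98.8, 102 and 78.0 CPM with pomiferin (1.56, adjusted p = 0.00603), and so were GATA3 (2.59 ± 0.18), 9 of 20 adrenergic factors with 1 lower, 19 of 26 mitotic genes with 0 lower, 39 of 98 nuclear respiratory chain genes with 5 lower, and 12 of 36 histone genes with 0 lower. H3-3A had 7798, 7439 and 8215 CPM with JQ1 and 1975, 1441 and 1825 CPM with pomiferin (2.16 ± 0.16, adjusted p = 1.95e-18). H3-3B, the other H3.3 gene, differed far less, by 0.33 to 0.55 with any one well left out. It was not called without JQ1 well R1 (0.39, adjusted p = 0.11) or R2 (0.45, adjusted p = 0.0616), or without pomiferin well R1 (0.33, adjusted p = 0.185).

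**Figure D5:**
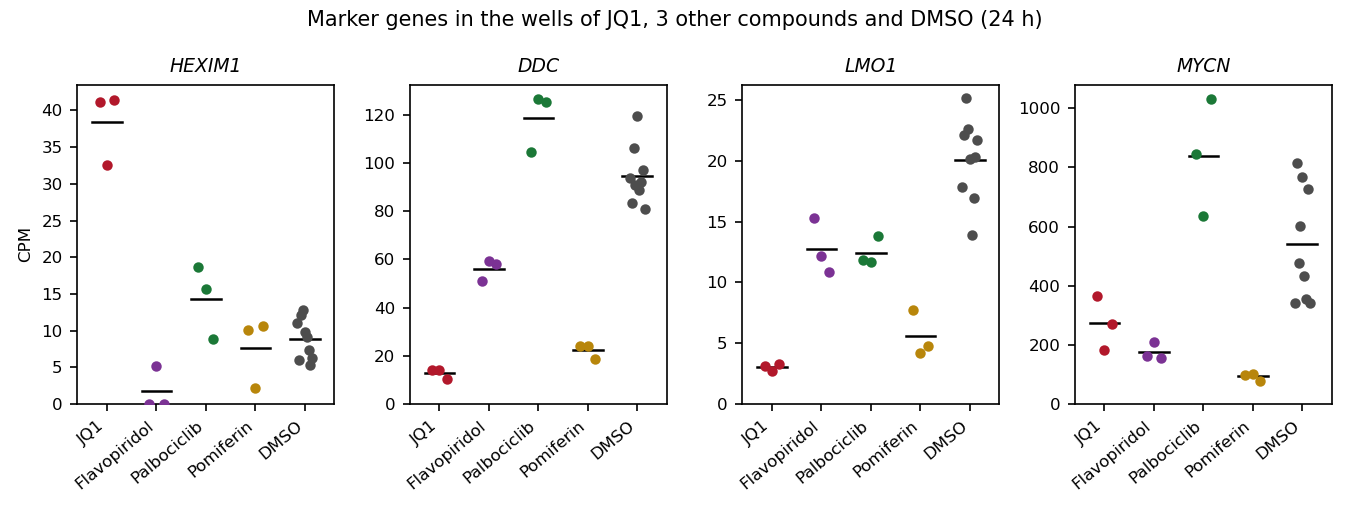
CPM of HEXIM1, DDC, LMO1 and MYCN in each well (points, linear axis from 0) with JQ1, flavopiridol, palbociclib, pomiferin (3 wells each) and DMSO (9 wells); the bar is the group mean. HEXIM1 is highest and DDC and LMO1 lowest in the JQ1 wells, with pomiferin next lowest for both, while for MYCN the JQ1 wells lie above those of pomiferin and 1 of them lies within the DMSO range.

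Over the 29 treatments of the experiment, JQ1 had the highest HEXIM1 and the lowest DDC and LMO1 of all, as fitted changes from the same DMSO wells and given as a description. For HEXIM1 the next highest was the CK2 inhibitor CX-4945 at 10, at 1.13, and the lowest was flavopiridol, at −2.32 on its 3 counts. For DDC the next lowest were pomiferin at 10, at −2.09, and Osajin (13O) at 10, at −1.84, and for LMO1 PF-47776 at 1.6, at −2.04, and pomiferin at 10, at −1.85. For MYCN, JQ1 was only the 8th lowest, at −0.98, and pomiferin at 10 was the lowest, at −2.54. These treatments share their controls, and their labelled concentrations differ.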

How the data were processed

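The values were deposited by the authors as raw counts per gene symbol, one table for the third experiment. Reads were aligned with STAR to GRCh38, per the submitters' processing notes, which give no versions; the counter, its strand setting and any use of molecular barcodes are not given in the sources used here. Groups, replicate numbers and labelled concentrations came from the sample labels. All 96 libraries of the experiment entered one fit, so that its 30 groups share an estimate of the spread. Of 57728 genes, 15596 passed edgeR's filter with a minimum count of 10. Libraries were scaled by the trimmed mean of M values, and contrasts were tested two-sided with the older quasi-likelihood method of edgeR 4.0.16 (R 4.3.3), with Benjamini-Hochberg adjustment over all genes tested and a threshold of 0.05; the standard error is the log2 change divided by the square root of F. The fit was checked on simulated counts. CPM values use the scaled library sizes. Depth was 2199791 to 3011563 counts per JQ1 library and 2775143 to 5263249 per DMSO library, so genes of about 1 CPM rest on a few counts per well. Alternatives were the newer quasi-likelihood method, DESeq2 1.42.0, other scalings and filters, fits of the compared groups alone, a replicate block and leaving out each well.

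Genes are named by a rule: the 15 largest rises and falls among called genes with at least 30 CPM in a group and no overlap between JQ1 and DMSO wells, uncharacterised loci left out; HEXIM1, DDC, LMO1 and MYCN; all tested members of the P-TEFb and BET, MYC network, adrenergic and catecholamine lists; the 4 members of smallest p in other lists with at least 3 calls; and the 5 largest differences each way in the direct comparisons. The members of lists with fewer calls, and other genes named from a list, were picked after their values were seen. The wells, lists and rules were chosen with earlier results of these data known. The treatment protocol speaks of 6 DMSO wells per plate, whereas 9 columns carry that label. Some list members are counted but not reported here by name. Sequences are from RefSeq.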

Additional observations from a re-analysis of the deposited data

Results flagged for a closer look

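Among 141 named genes, 17 had 1 DMSO well whose gap to its nearest neighbour, as a share of the range of the 9 wells, passed the 95% critical value of Dixon's test. Chance gives about 1 in 20 only for values with a normal spread. The shares were taken on CPM without a log, some from a few counts, so 17 of 141 cannot be set against that rate. The share was 0.974 for MORC2-AS1 in well R3 (265 CPM, next 10.3), 0.832 for SOX11 in R3 (587, next 257), 0.611 for BRD2 in R6 (254, next 129), 0.645 for H2AC6 in R4 (2.80, next 1.12) and 0.604 for RPL30 in R6 (464, next 362). It was 0.573 for TFAP2B in R1 (150, next 114), 0.565 for NELFCD in R2.1 (168, next 122), 0.553 for GATA3 in R2 (276, next 214), 0.552 for ULK1 in R6 (14.4, next 11.0) and 0.547 for PSAT1 in R5 (336, next 270). It was 0.545 for H2BC5 in R5 (3.05, next 1.64), 0.528 for IGF2BP3 in R1 (15.8, next 9.80), 0.523 for COL1A1 in R6 (295, next 241), 0.501 for ATP5MC1 in R5 (295, next 236), 0.497 for IRF7 in R5 (2.24, next 1.12) and 0.496 for FRY in R3.1 (20.4, next 11.9). BUB1 alone was low, in R2 (share 0.561; 13.5 CPM, next 21.8). Without that well the calls of MORC2-AS1, PSAT1 and BUB1 were lost, with adjusted p = 0.0745, 0.0532 and 0.0842.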

How the results depend on the processing

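The 2278 calls of JQ1 against DMSO became 2694 with the newer quasi-likelihood method, 2590 with DESeq2, 2314 with RLE scaling, 2292 by total counts, 1980 without a filter, 2251 with a minimum count of 30 and 2376 with the compared groups alone. With the replicate number as a block, calls were 1870 against DMSO, 4181 against flavopiridol, 2109 against palbociclib and 3614 against pomiferin; same-numbered JQ1 and DMSO wells deviated with correlations of 0.125, 0.206 and −0.00627, not all over 0.1, so the wells were not treated as pairs. With the compared groups alone, where fewer genes and wells enter, calls were 1821 against flavopiridol and 1056 against palbociclib. MYCN was at −1.0 without a filter, −0.96 with the compared groups alone and −0.94 with DESeq2, and was called in each. With any one well left out, calls were 1502 to 2239 against DMSO, 3577 to 3801 against flavopiridol, 1542 to 1776 against palbociclib and 2856 to 3228 against pomiferin; HEXIM1 was at 2.03 to 2.19, DDC at −2.96 to −2.75, LMO1 at −2.78 to −2.65 and MYCN at −1.27 to −0.78. CHGA turned to −0.059 without JQ1 replicate 1, the other wells leaving it at up to 0.19. Of 141 named genes, 19 lost their call without JQ1 replicate 1, 25 without replicate 2, 21 without replicate 3, 26 without a filter, 12 under the replicate block and 8 of 140 with the compared groups alone; the cause was not tested.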

Other observations

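Some genes were high in 1 well of a treatment alone. Among genes with a mean of at least 30 CPM in a group, the highest well had at least 8 times the next for 54 of 3927 genes with JQ1, 45 of 3436 with flavopiridol, 30 of 3719 with palbociclib, 39 of 3977 with pomiferin and 47 of 3816 with DMSO. GTF2IP13 had 1341 CPM in JQ1 well R1 and 3.77 CPM in the next well, with adjusted p = 4.14e-10 by edgeR. TPH1 had 1123 CPM in R1 and 9.90 CPM in the next, CDKL1 1075 CPM in R2 and 4.71 CPM in the next, and METTL21A 1062 CPM in R3 and 18 CPM in the next. These 4 genes were chosen after their values were seen, and the cause was not tested.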
